A study of Mus musculus with 6 samples.

Results

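The genes described here encode 44 enzymes and carriers of the urea cycle and of amino acid breakdown, taken by gene symbol from the 57180 genes of the deposited expression table. All 44 were found, each on a single line of the table, and all 44 had enough reads to be tested. The list was drawn up by pathway membership and not by measured values, although earlier results of these data were known when it was chosen. The libraries are from primary hepatocytes of male mice, 3 from LOXP animals, whose STING gene is floxed, and 3 from liver STING-specific knockout (STINGLKO) animals, labelled KO, which came from crossing STING floxed with Albumin-Cre mice. Albumin-Cre expresses the Cre recombinase in hepatocytes, and no source says that the LOXP controls carried Cre, so Cre and the loss of STING cannot be told apart here. All 6 cultures received palmitic acid at 0.1 mM for 24 h, a saturated fatty acid load used to mimic steatohepatitis in a dish. The study seeded its primary hepatocytes in a medium with dexamethasone, a synthetic glucocorticoid, and fetal bovine serum. Its methods do not say which medium was used during the palmitic acid treatment. The study describes its mice as males of C57BL/6 background aged 8 to 10 weeks. No source says whether the 3 libraries of a group came from separate animals, so p-values measure the spread between these libraries.

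The liver is the organ that disposes of amino acid nitrogen. Amino groups are moved by aminotransferases onto glutamate, freed as ammonia in mitochondria, and packed into urea by a cycle whose early steps run in mitochondria and whose later steps run in the cytosol. The carbon skeletons are broken down along separate routes for tyrosine, tryptophan, histidine, serine, lysine and the branched-chain amino acids. Many of these enzymes are most abundant in periportal hepatocytes, are induced by glucagon and glucocorticoids, and fall in hepatocytes kept in culture.

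Counted reads per library ran from 14726983 to 18536985, of which the 44 genes took 0.442% to 0.476% in LOXP and 0.39% to 0.393% in KO. The values given per library are the authors' FPKM (reads scaled by gene length and by the library's counted reads), which allow levels of different genes to be compared. Fold changes, standard errors (SE) and adjusted p-values come from edgeR's quasi-likelihood test on the counts, fitted over the 14151 genes with enough reads. The targeted gene did not separate the groups: *Sting1* had 19, 16 and 23 counts in LOXP replicates 1, 2 and 3 and 24, 23 and 15 counts in KO replicates 1, 2 and 3 (log2 fold change -0.08, SE 0.298, adjusted p = 0.883). The counts are few, and the study does not name the exons that the deletion removes. Reads on any exons left would still be counted, which was not tested. These counts therefore do not check the genotype, which is taken here from the labels. The study reports, by RT-PCR, that *Sting1* mRNA was lost in its knockout hepatocytes, a result that is not in these counts. Lower or higher always refers to libraries that bear the KO label. The hepatocyte label was met by its markers, led by *Alb* with a mean FPKM of 7670 in LOXP and 6541 in KO. All 8 lymphocyte markers had 0 counts in every library, and the 6 neutrophil markers had 12 counts in all. Some markers of other liver cells were present, *Cldn4* with a mean FPKM of 111 and *Cd68* with 37.5 in LOXP, as given below.

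In the libraries labelled KO, 22 of the 44 genes were lower and 2 were higher than in LOXP by edgeR (adjusted p under 0.05). The same threshold was passed by 11.6% of all tested genes downward and by 11.5% upward. The median log2 fold change of the 44 genes was -0.41, beside -0.00 over all genes tested, and 36 of the 44 had a value below 0, beside 50.3% of all genes. Normalized counts of the KO libraries lay below every LOXP library for 25 of the 44 genes and above every LOXP library for 5, and 14 overlapped. Over all genes tested these shares were 20.3% below and 20.4% above. With 3 libraries against 3, an exact two-sided permutation test of a single gene allows no p under 0.1. The study's own criteria for a differentially expressed gene (DEG; q under 0.05, a log2 fold change beyond 1 in either direction, and either group's mean FPKM over 1) were met by 6 of the 44, all lower (*Cps1*, *Arg1*, *Hgd*, *Acmsd*, *Uroc1* and *Amdhd1*), beside 1.49% of all genes tested. None of the 44 was a higher DEG, beside 0.558% of all genes, since their largest log2 fold change upward was 0.43.

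**Figure D1:**
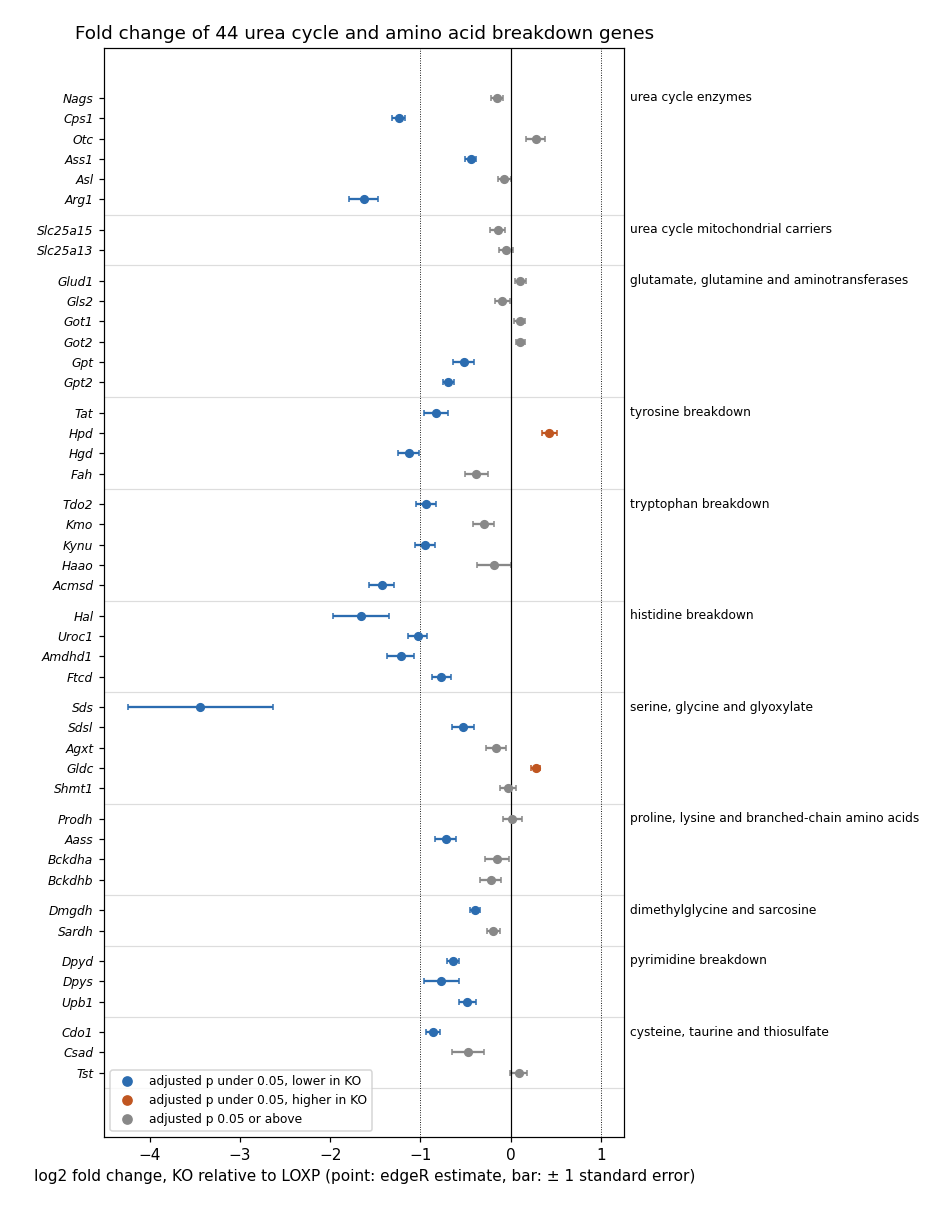
Log2 fold change of each of the 44 genes in KO relative to LOXP libraries (n = 3 per group), grouped by pathway, with bars of 1 standard error on each side and dotted lines at -1 and 1. Of the 44 points, 22 are marked as lower and 2 as higher at an adjusted p under 0.05, and *Sds* has the widest bar.

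The change was uneven along the urea cycle. *Cps1*, *Ass1* and *Arg1* fell, while *Nags*, *Otc*, *Asl* and both carriers did not pass the test. *Cps1* (ENSMUSG00000025991, chromosome 1, 67162185 to 67270418 in GRCm39) encodes carbamoyl-phosphate synthase, the mitochondrial enzyme that commits ammonia to the cycle. Its FPKM was 81.3, 76.6 and 92.7 in LOXP replicates 1, 2 and 3 and 36.0, 35.3 and 37.3 in KO replicates 1, 2 and 3. The 3 KO values lay close together and far below every LOXP value, at 42.3% of LOXP (log2 fold change -1.24, SE 0.0701, adjusted p = 2.66e-05). *Arg1* (ENSMUSG00000019987, chromosome 10, 24791119 to 24803382) encodes arginase, which releases urea from arginine in the cytosol. Its FPKM was 6.31, 5.28 and 4.80 in LOXP and 2.16, 1.58 and 1.68 in KO, so that the groups did not overlap. The level in KO was 32.2% of that in LOXP (log2 fold change -1.63, SE 0.163, adjusted p = 0.000366).

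*Ass1*, which encodes argininosuccinate synthase, the enzyme that brings in the second nitrogen, was the tightest of the group in LOXP, with FPKM of 48.4, 49.2 and 48.8. It was 37.0, 38.6 and 35.4 in KO, with no overlap and a smaller fold change than that of *Cps1* (log2 fold change -0.44, SE 0.0614, adjusted p = 0.0018). *Otc*, whose product makes citrulline in mitochondria, went the other way in level without passing the test. Its FPKM was 4.55, 3.88 and 3.51 in LOXP and 4.91, 5.08 and 4.92 in KO, with no overlap of the groups (log2 fold change 0.28, SE 0.107, adjusted p = 0.0926). *Nags*, which makes the activator of carbamoyl-phosphate synthase, and *Asl*, which splits argininosuccinate, had log2 fold changes of -0.15 (adjusted p = 0.156) and -0.07 (adjusted p = 0.552). The carrier genes *Slc25a15*, for ornithine, and *Slc25a13*, for aspartate and glutamate, had -0.14 and -0.05 (adjusted p = 0.282 and 0.699), and the groups overlapped for both.

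Ratios of FPKM within a library give the balance between enzymes, and 8 such ratios, chosen after the values were seen, were computed over all pathways. In LOXP, *Cps1* had 1.71 ± 0.174 times the FPKM of *Ass1* (SD, n = 3), and in KO 0.981 ± 0.0695 times (SD, n = 3), with no overlap of the 3 ratios of each group (p = 0.1 by exact permutation, the lowest that 3 against 3 allows). *Arg1* had 1.37 ± 0.0145 times the FPKM of *Otc* in LOXP and 0.365 ± 0.0674 times in KO (SD, n = 3). Exact permutation again gave p = 0.1. Every KO library lay below every LOXP library for *Arg1* and above for *Otc*, so this p followed from the single genes. The same holds for the ratios of *Hpd* to *Hgd* and of *Gldc* to *Amt* below. *Cps1* was the most abundant of the 6 enzymes in every LOXP library, and in KO its mean of 36.2 ± 0.985 lay beside the 37.0 ± 1.61 of *Ass1* (SD, n = 3).

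**Figure D2:**
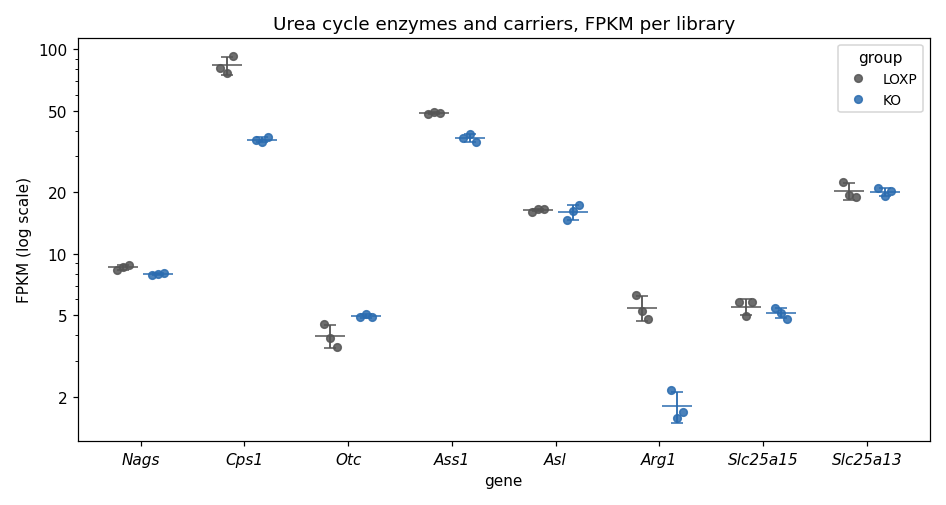
FPKM, on a log scale, of the 6 urea cycle enzymes and 2 mitochondrial carriers in each library of the LOXP and KO groups, with the group mean as a long horizontal line and 1 SD as the vertical bar (n = 3). The KO points of *Cps1*, *Ass1*, *Arg1* and, by a small margin, *Nags* lie below all LOXP points, those of *Otc* above, and those of *Asl*, *Slc25a15* and *Slc25a13* among them.

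Genes that feed nitrogen into the cycle divided by enzyme. Of 6 genes for glutamate, glutamine and aminotransferases, 2 fell and the other 4 did not pass the test. The fallers encode the alanine aminotransferases, which exchange amino groups between alanine and glutamate. *Gpt2*, the mitochondrial form, had FPKM of 89.9, 91.3 and 103 in LOXP and 58.4, 59.8 and 62.6 in KO, with clear separation (log2 fold change -0.69, SE 0.0625, adjusted p = 0.000245). *Gpt*, the cytosolic form, had 10.6, 13.4 and 13.0 in LOXP and 7.86, 9.67 and 8.88 in KO (log2 fold change -0.52, SE 0.115, adjusted p = 0.0132). The FPKM of *Gpt2* was 7.74 ± 0.869 times that of *Gpt* in LOXP and 6.89 ± 0.642 times in KO (SD, n = 3), which overlapped (exact permutation p = 0.3).

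*Glud1*, for glutamate dehydrogenase, the main source of free ammonia in liver mitochondria, was the most abundant of the 44 genes. Its FPKM was 163, 142 and 163 in LOXP and 179, 165 and 174 in KO, slightly higher in KO without passing the test (log2 fold change 0.11, SE 0.0597, adjusted p = 0.235). The aspartate aminotransferase genes *Got1* (cytosolic) and *Got2* (mitochondrial) had log2 fold changes of 0.10 and 0.11 (adjusted p = 0.295 and 0.19). *Got2* has a processed pseudogene, *Got2-ps1*, with 12345 counts beside its own 58434, so the split of reads between the copies is uncertain. *Gls2*, for the liver glutaminase, had -0.09 (adjusted p = 0.5), and it overlaps *Spryd4*, which had 3049 counts beside 3226.

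In tyrosine breakdown, neighbouring steps moved in opposite directions. *Tat*, for tyrosine aminotransferase, the first step and a classical glucocorticoid-induced gene, had FPKM of 8.28, 10.8 and 11.6 in LOXP and 5.83, 6.02 and 5.83 in KO. All KO values lay below all LOXP values (log2 fold change -0.83, SE 0.133, adjusted p = 0.0032). *Hpd*, for the dioxygenase of the next step, rose from 10.6, 9.50 and 10.5 in LOXP to 13.8, 15 and 13.4 in KO (log2 fold change 0.43, SE 0.0802, adjusted p = 0.00645). *Hpd* overlaps *Psmd9*, which had 3515 counts over the 6 libraries to the 3384 of *Hpd* and a log2 fold change of -0.09 (adjusted p = 0.523). *Hgd* (ENSMUSG00000022821, chromosome 16, 37400515 to 37452382), for homogentisate dioxygenase, fell from 5.06, 5.03 and 5.80 to 2.69, 2.42 and 2.32, which is 45.6% of LOXP (log2 fold change -1.13, SE 0.117, adjusted p = 0.000423). The ratio of *Hpd* to *Hgd* FPKM was 1.93 ± 0.145 in LOXP and 5.71 ± 0.554 in KO (SD, n = 3; exact permutation p = 0.1). *Fah*, for the last enzyme of the route, had 13.6, 18.1 and 18.7 in LOXP and 13.7, 13.8 and 12.1 in KO, where LOXP replicate 1 lay within the KO range. Its log2 fold change of -0.38 did not pass edgeR's quasi-likelihood test (adjusted p = 0.0639). *Fah* did pass with DESeq2 (adjusted p = 0.0245), with the likelihood ratio and exact tests of edgeR (0.0452 and 0.0461) and without LOXP replicate 1 (0.00648).

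In tryptophan breakdown, 3 of 5 genes fell and 2 did not pass the test. *Tdo2*, for tryptophan dioxygenase, the liver's entry step, had FPKM of 3.97, 3.32 and 3.70 in LOXP and 1.77, 2 and 2.08 in KO (log2 fold change -0.94, SE 0.11, adjusted p = 0.000748). *Kynu*, for kynureninase, had 4.35, 3.44 and 4.23 in LOXP and 2.26, 1.94 and 2.18 in KO (log2 fold change -0.95, SE 0.107, adjusted p = 0.000646). These levels were 52.0% and 51.7% of LOXP, with no overlap of the groups. *Acmsd* (ENSMUSG00000026348, chromosome 1, 127657150 to 127695715), whose enzyme diverts the pathway from NAD synthesis to full oxidation, fell further. Its FPKM was 7.36, 5.80 and 5.67 in LOXP and 2.66, 2.15 and 2.36 in KO, 37.1% of LOXP (log2 fold change -1.43, SE 0.139, adjusted p = 0.000328). *Kmo* and *Haao*, which act between these steps, had log2 fold changes of -0.30 (adjusted p = 0.109) and -0.18 (adjusted p = 0.556), and their groups overlapped. *Kmo* also overlaps *Fh1*, which had 13003 counts beside 2165.

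Histidine breakdown was a pathway in which each of the 4 genes fell, with a median log2 fold change of -1.12. The route runs from histidine through urocanate to glutamate, by *Hal* (histidine ammonia-lyase), *Uroc1* (urocanase), *Amdhd1* (imidazolonepropionase) and *Ftcd*, whose product hands a one-carbon unit to folate. *Ftcd* was the most abundant, with FPKM of 24.9, 27.7 and 32.8 in LOXP and 16.4, 17.9 and 17 in KO (log2 fold change -0.77, SE 0.104, adjusted p = 0.00143). *Uroc1* had 3.38, 3.77 and 3.76 in LOXP and 1.72, 1.89 and 1.86 in KO (log2 fold change -1.03, SE 0.103, adjusted p = 0.00038). For both, the lowest LOXP library was well above the highest KO library. *Amdhd1* had 4.16, 5.08 and 5.28 in LOXP and 2.10, 2.32 and 1.94 in KO (log2 fold change -1.22, SE 0.149, adjusted p = 0.000916). *Hal* was low in all libraries, with 30, 35 and 53 counts in LOXP and 16, 14 and 12 in KO (log2 fold change -1.66, SE 0.315, adjusted p = 0.00719). Pooled over libraries, the ratio of KO to LOXP for *Hal* was 0.314, with an exact 95% interval of 0.215 to 0.45 for counting error alone.

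Because the 4 histidine genes fell together, their promoters are shown, each from 250 bases before to 50 bases after the annotated start, on the gene's own strand, as RefSeq gives them for GRCm38.p6 (a different build from the table's GRCm39). The windows lie at chr10:93488518-93488817 (*Hal*, plus strand), chr6:90333039-90333338 (*Uroc1*, plus strand), chr10:93539984-93540283 (*Amdhd1*, minus strand) and chr10:76575398-76575697 (*Ftcd*, plus strand). Capitals mark matches to the motifs searched, which for *Ftcd* is on the opposite strand.
Hal: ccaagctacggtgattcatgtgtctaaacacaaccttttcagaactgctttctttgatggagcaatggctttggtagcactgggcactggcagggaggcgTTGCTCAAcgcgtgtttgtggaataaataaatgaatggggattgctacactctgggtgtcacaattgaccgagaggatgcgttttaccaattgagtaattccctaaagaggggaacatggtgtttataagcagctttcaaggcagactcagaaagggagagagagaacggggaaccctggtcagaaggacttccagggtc
Uroc1: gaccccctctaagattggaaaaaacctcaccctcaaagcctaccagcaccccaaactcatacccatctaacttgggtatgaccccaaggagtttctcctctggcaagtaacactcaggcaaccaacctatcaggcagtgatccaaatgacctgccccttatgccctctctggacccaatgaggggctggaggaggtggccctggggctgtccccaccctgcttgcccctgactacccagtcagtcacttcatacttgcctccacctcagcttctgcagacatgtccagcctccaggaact
Amdhd1: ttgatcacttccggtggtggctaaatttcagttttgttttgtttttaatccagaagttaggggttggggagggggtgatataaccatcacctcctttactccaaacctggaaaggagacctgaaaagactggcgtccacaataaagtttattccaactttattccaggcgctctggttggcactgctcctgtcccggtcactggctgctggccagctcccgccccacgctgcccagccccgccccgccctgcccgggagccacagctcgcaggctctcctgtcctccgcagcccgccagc
Ftcd: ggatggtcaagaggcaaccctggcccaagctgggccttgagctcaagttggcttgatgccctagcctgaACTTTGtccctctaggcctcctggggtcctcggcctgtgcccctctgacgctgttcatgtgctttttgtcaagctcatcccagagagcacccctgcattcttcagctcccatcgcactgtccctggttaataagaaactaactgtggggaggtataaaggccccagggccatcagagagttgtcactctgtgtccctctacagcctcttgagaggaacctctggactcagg

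Motifs were searched on both strands as TGACGTCA (CREB full site), TTGCNNAA (C/EBP site), TGTTCT (glucocorticoid receptor core) and CAAAGT (HNF4 core), none of which contains another. The *Hal* window held a C/EBP match that began 150 bases before the start, and the *Ftcd* window an HNF4 core match 181 bases before it. The *Uroc1* and *Amdhd1* windows held none of the 4. RefSeq windows were matched by symbol for 33 of the 44 genes, 14 of which were lower in KO. Of these 14, 3 held the C/EBP site (*Aass*, *Hal* and *Hgd*), 1 the glucocorticoid receptor core (*Upb1*), 1 the HNF4 core (*Ftcd*) and 0 the CREB site. Of all 33, lower or not, 3, 5, 4 and 0 held these motifs, in that order. Among all 32851 windows of the same length, 10.8%, 19%, 14.4% and 1.79% held these motifs, in that order. A gene was counted if any of its windows held the motif, whereas these are shares of single windows, so the measures are not alike. A match describes the letters of a window and no binding was measured.

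Among the serine and glycine genes, *Sds* had the largest fold change of the 44. It encodes serine dehydratase, a glucagon-induced enzyme that turns serine into pyruvate and ammonia, and it had 18, 29 and 24 counts in LOXP and 7, 0 and 0 in KO. These are few reads, and the pooled ratio of KO to LOXP was 0.087, with an exact 95% interval of 0.0338 to 0.189 for counting error alone. The fitted log2 fold change was -3.44 (SE 0.807, adjusted p = 0.0175), and its adjusted p was above 0.05 with DESeq2 and without KO replicate 2 or 3 (highest 0.116). *Sds* also overlaps *Plbd2*, a gene with 15468 counts. *Sdsl*, a serine dehydratase-like gene, was more abundant, with FPKM of 9.43, 9.86 and 8.50 in LOXP and 5.79, 7.36 and 6.54 in KO (log2 fold change -0.53, SE 0.122, adjusted p = 0.0163). Without KO replicate 1 or 3 the adjusted p of *Sdsl* was above 0.05 (highest 0.0563).

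*Gldc*, for the decarboxylating subunit of the mitochondrial glycine cleavage system, was the other gene that rose. Its FPKM was 32.7, 31.0 and 30.5 in LOXP and 38.7, 39.0 and 39.2 in KO, a small shift against a narrow spread (log2 fold change 0.28, SE 0.0498, adjusted p = 0.00549). *Amt*, for the aminomethyltransferase of the same complex, fell from 7.06, 7.54 and 7.80 to 4.75, 5.07 and 4.56 (log2 fold change -0.67, SE 0.0896, adjusted p = 0.00136). The ratio of *Gldc* to *Amt* was 4.21 ± 0.371 in LOXP and 8.15 ± 0.456 in KO (SD, n = 3; exact permutation p = 0.1). *Agxt*, which detoxifies glyoxylate to glycine, and *Shmt1*, which interconverts serine and glycine in the cytosol, had log2 fold changes of -0.16 and -0.03 (adjusted p = 0.344 and 0.863). *Shmt1* overlaps *Smcr8*, which had 10389 counts beside 4853.

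Of the proline, lysine and branched-chain genes, *Aass*, for the enzyme that opens mitochondrial lysine breakdown, fell. It had FPKM of 4.88, 3.63 and 4 in LOXP and 2.60, 2.56 and 2.63 in KO (log2 fold change -0.72, SE 0.119, adjusted p = 0.00381). *Bckdha* and *Bckdhb*, for subunits of the branched-chain ketoacid dehydrogenase, had -0.15 and -0.22 (adjusted p = 0.477 and 0.206). *Bckdha*, the most abundant of this set, ran from 16.8 to 23.3 in LOXP and from 18.5 to 20.6 in KO, so the KO values lay inside the LOXP range. *Prodh*, for proline dehydrogenase, had 0.02 (adjusted p = 0.922), and it overlaps *Dgcr6*, which had 2557 counts beside 4434. *Dmgdh*, for the dimethylglycine dehydrogenase of choline breakdown, fell from 33.2, 32.3 and 33.6 to 25.8, 25.1 and 26.8 (log2 fold change -0.39, SE 0.055, adjusted p = 0.00183). *Sardh*, for the sarcosine step that follows it, had -0.19 (adjusted p = 0.0965).

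Each of the 3 pyrimidine breakdown genes fell, with a median log2 fold change of -0.64. *Dpyd*, for the dehydrogenase of the first step, had FPKM of 7.79, 7.68 and 7.80 in LOXP and 5.26, 4.73 and 5.35 in KO (log2 fold change -0.64, SE 0.0669, adjusted p = 0.000449). *Dpys*, for dihydropyrimidinase, was near 1 in LOXP (1, 1.02 and 1.26) and had 0.541, 0.747 and 0.677 in KO (log2 fold change -0.77, SE 0.194, adjusted p = 0.0238). Its adjusted p was above 0.05 without LOXP replicate 3 or KO replicate 1 or 3 (highest 0.0813). *Upb1*, for the last step, had 3.33, 3.78 and 4.02 in LOXP and 2.64, 2.82 and 2.70 in KO (log2 fold change -0.48, SE 0.0956, adjusted p = 0.00863). *Upb1* overlaps *Gucd1*, which had 4549 counts beside 2351 and a log2 fold change of -0.79 (adjusted p = 0.00012), and the part of shared reads in the fall of *Upb1* was not tested.

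In sulfur amino acid breakdown, *Cdo1*, for cysteine dioxygenase, fell. Its FPKM was 29.4, 29.8 and 28.6 in LOXP and 17.7, 16.5 and 15.3 in KO, 55.1% of LOXP (log2 fold change -0.86, SE 0.0729, adjusted p = 0.000179). *Csad*, which leads on to taurine, had 1.40, 1.46 and 1.52 in LOXP and 0.909, 0.922 and 1.41 in KO. By FPKM, KO replicate 3 lay within the LOXP range, whereas by normalized counts every KO library lay below every LOXP library. *Csad* did not pass the test (log2 fold change -0.47, adjusted p = 0.0894). It overlaps *Zfp740*, which had 3181 counts beside 977. *Tst*, for the sulfurtransferase rhodanese, had 0.09 (adjusted p = 0.516).

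**Figure D3:**
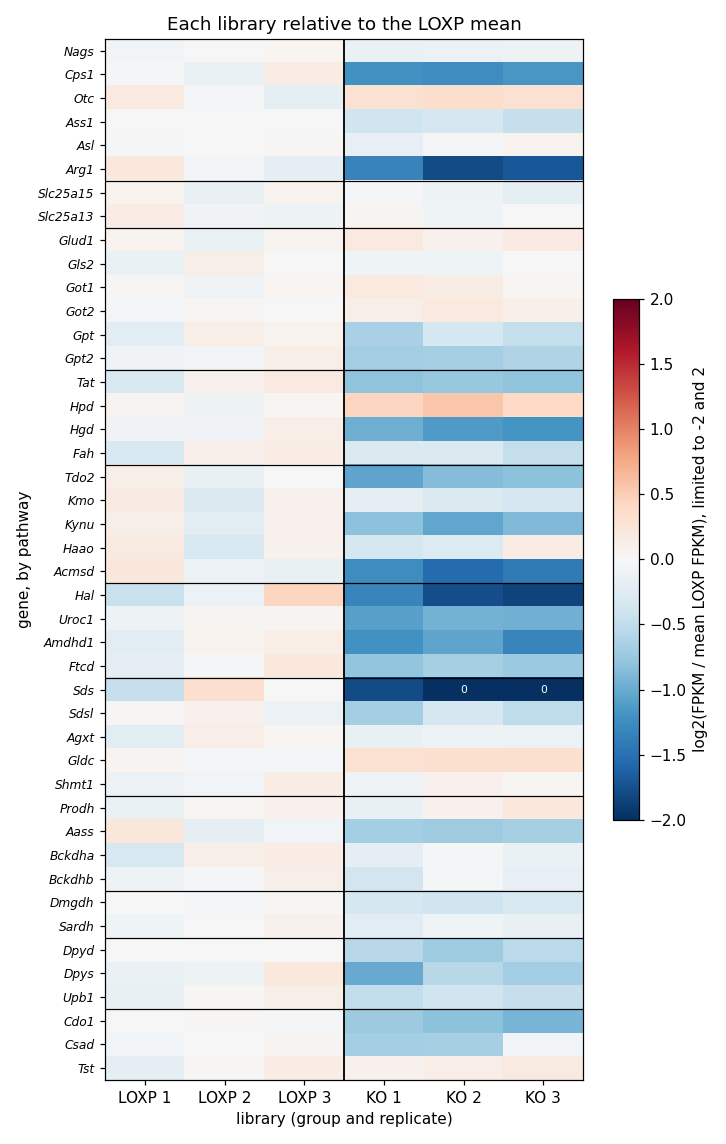
Each row is a gene, grouped by pathway with black lines between pathways, and each column a library. Colour gives log2 of the FPKM over the mean LOXP FPKM, limited to -2 and 2, and a 0 marks libraries in which *Sds* had no reads. The 3 KO columns are alike and mostly blue, with *Otc*, *Hpd* and *Gldc* in red.

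Replicates were close for most of these genes. The coefficient of variation of normalized counts had a median of 9.1% in LOXP and 6.28% in KO over the 44 genes. It was highest for *Hal* (31.1%) and *Sds* (28.2%) in LOXP and for *Sds* (173%) and *Csad* (25.5%) in KO. LOXP replicate 3 had the highest value of the 6 libraries for 18 genes, LOXP replicate 2 for 11 and LOXP replicate 1 for 8. The summed FPKM of the 44 genes was 903, 897 and 961 in LOXP and 795, 797 and 793 in KO. *Glud1* and *Got2*, the most abundant in KO, did not pass the test and weigh on this sum.

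The location of the enzyme was not used to draw up the list. By textbook location, 18 of the 44 proteins are mitochondrial and 25 cytosolic, with *Agxt* left aside because it is found in more than one compartment. Of the cytosolic set 18 fell and 1 rose, with a median log2 fold change of -0.77. Of the mitochondrial set 4 fell (*Cps1*, *Gpt2*, *Aass* and *Dmgdh*) and 1 rose (*Gldc*), with a median of -0.14. Level moved with location. Among the 22 genes with the higher mean FPKM, 5 of 10 cytosolic and 3 of 11 mitochondrial genes fell, and among the 22 with the lower mean FPKM, 13 of 15 cytosolic and 1 of 7 mitochondrial genes fell. No test of the difference between locations was run.

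Further enzymes of amino acid metabolism were counted for comparison. Of 60 such genes outside the 44, 59 were tested, 17 were lower and 6 higher, with a median log2 fold change of -0.15. The number higher was 2 without LOXP replicate 3, KO replicate 2 or KO replicate 3, and 3 without LOXP replicate 2. The 5 with the smallest adjusted p were *Qprt*, *Chdh*, *Agxt2*, *Kyat3* and *Amt*. *Qprt*, which makes NAD precursors from the tryptophan route, fell from 21.1 ± 0.879 to 12.4 ± 0.994 FPKM (SD, n = 3; log2 fold change -0.80, adjusted p = 0.000436 in edgeR). *Chdh*, which starts choline oxidation upstream of *Dmgdh*, fell from 1.76 ± 0.212 to 0.614 ± 0.141 (SD, n = 3; log2 fold change -1.56, adjusted p = 0.000622 in edgeR). *Kyat3*, a kynurenine aminotransferase gene, rose from 4.09 ± 0.371 to 6.55 ± 0.27 (SD, n = 3; log2 fold change 0.65, adjusted p = 0.000811 in edgeR). *Agxt2* fell by 0.87 in log2 fold change (adjusted p = 0.000737).

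Of 12 amino acid transporter genes, 3 were lower and 3 higher. *Slc38a4*, a sodium-coupled neutral amino acid transporter, fell by 0.28 in log2 fold change (adjusted p = 0.00338), and *Slc1a2*, a glutamate transporter with FPKM of at most 0.329 in every library, fell by 1.47 (adjusted p = 0.00136). *Slc16a10* fell by 0.26 (adjusted p = 0.0313). *Slc7a5*, a large neutral amino acid transporter, rose by 0.45 (adjusted p = 0.00262), and *Slc6a6*, the taurine transporter, rose by 0.34 (adjusted p = 0.00377).

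Of 14 regulators known to act on these genes, 4 were lower and 10 did not pass the test. *Hnf4a*, a nuclear receptor central to hepatocyte identity, had FPKM of 34.2, 32.0 and 36.0 in LOXP and 24.1, 22.1 and 23.3 in KO (log2 fold change -0.59, SE 0.0582, adjusted p = 0.000338). *Gcgr*, the glucagon receptor gene, had 9.56, 10.3 and 11.2 in LOXP and 6.03, 6.56 and 5.91 in KO (log2 fold change -0.78, SE 0.0872, adjusted p = 0.000608). Both separated the groups fully. *Klf15* and *Ppargc1a* fell by 0.56 and 1.21 in log2 fold change (adjusted p = 0.0287 and 0.03), and *Ppargc1a* had at most 0.45 FPKM in any library. *Nr3c1*, the glucocorticoid receptor gene, had -0.34 (adjusted p = 0.131), and *Cebpa*, *Cebpb* and *Atf4* had 0.27, 0.12 and -0.07 (adjusted p = 0.0856, 0.668 and 0.773).

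**Figure D4:**
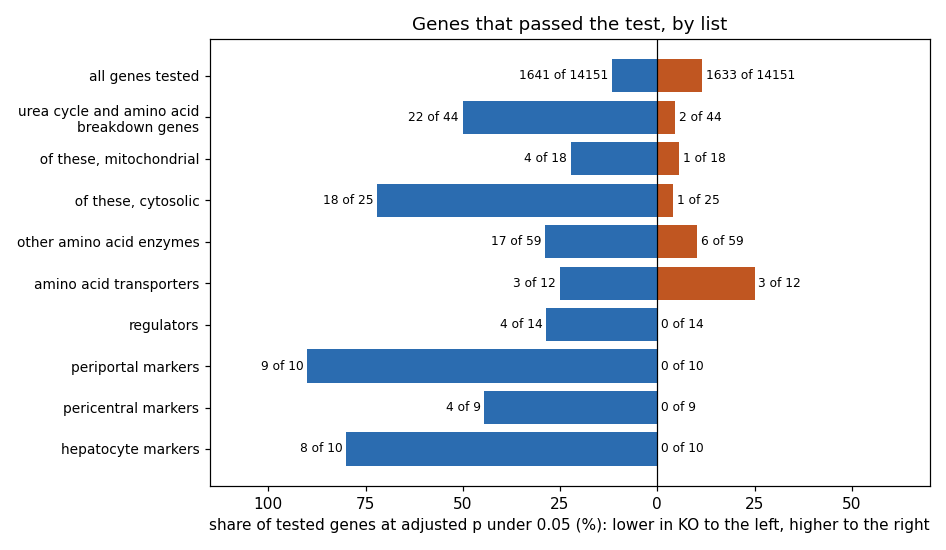
Share of the tested genes of each list, in percent, that were lower (left) or higher (right) in KO at an adjusted p under 0.05, with the counts beside each bar. The lower share is 11.6% over all genes tested, 22 of 44 for the urea cycle and amino acid breakdown genes, and 9 of 10 for the periportal markers.

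Hepatocyte and zonation markers moved in the same comparison. Of 10 hepatocyte markers 8 were lower (median log2 fold change -0.42), and their summed FPKM was 11456 to 12003 in LOXP and 9618 to 9804 in KO. *Alb* fell by 0.27 in log2 fold change (adjusted p = 0.00319) and *Apoa1* had -0.09 (adjusted p = 0.232). Of 10 periportal markers 9 were lower, with a median of -0.99, among them *Hsd17b13*, *Cdh1*, *Cyp2f2* and the gluconeogenic gene *Pck1* (log2 fold changes -1.63, -1.11, -0.64 and -3.30). Of 9 pericentral markers tested, 4 were lower (*Slc1a2*, *Rgn*, *Cyp1a2* and *Gulo*), and the median was -0.07. In bulk RNA, fewer cells of a type and less RNA per cell cannot be told apart, and the part of these marker changes in the fall of the 44 genes was not tested.

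Summed levels of the markers of other liver cells were far under the hepatocyte sums, although *Cldn4*, with a mean FPKM of 111 in LOXP, and *Cd68*, with 37.5, stood above the 34.1 of the hepatocyte marker *Hnf4a*. Summed FPKM of 10 macrophage and Kupffer cell markers was 59.7 to 66.3 in LOXP and 43.6 to 49.9 in KO, with 2 of the 9 tested lower, *Cd68* most abundant and *Lyz2* next. *Cd68*, with a mean FPKM of 37.5 in LOXP and 21.1 in KO, weighs on this sum. The median log2 fold change of the 9 was 0.05, with 4 below 0 and 5 above. For 8 sinusoidal endothelial markers, led by *Cdh5* and *Lyve1*, the sums were 26.5 to 27.9 and 24.1 to 26.5, with 1 of 7 tested lower. For 8 stellate cell and fibroblast markers, led by *Dcn* and *Pdgfrb*, they were 4.69 to 4.77 and 5.27 to 5.39, and 0 of 7 tested passed in edgeR or DESeq2, with 1 at an unadjusted p under 0.05 in edgeR. For 6 cholangiocyte markers the sums were 119 to 140 and 61.8 to 72.7, of which *Cldn4* and *Sox9* made up the most, and of 4 tested 3 were lower and 1 higher. Their part in the results was not tested.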

How the data were processed

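Hepatocytes labelled LOXP (3 libraries) and KO (3 libraries), all treated with palmitic acid (0.1 mM, 24 h), were profiled by paired-end mRNA sequencing. The deposited counts are whole reads per gene that the authors did not normalize, and the deposited FPKM are the authors' scaling of these counts by gene length and library total. The submitters' processing notes name fastp, HISAT2, StringTie, edgeR and the GRCm39 build. The annotation, the counting step and its strand setting are not given in the sources used here, so reads of overlapping genes cannot be told apart.

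Counts were tested with edgeR 4.0.16 in R 4.3.3 (TMM factors, filterByExpr with a minimum count of 10, quasi-likelihood test of KO against LOXP, Benjamini-Hochberg adjustment over all 14151 genes kept). The standard error is the log2 fold change divided by the square root of F. Alternatives were DESeq2 1.42.0, the likelihood ratio and exact tests of edgeR, upper-quartile scaling, filters of 1 count and of 10 counts in every library, a replicate block, limma-trend 3.58.1 on log2(FPKM + 1) and log2(FPKM + 0.1), and leaving out each library. The scripts were tested on simulated data. Ratios were compared by exact two-sided permutation tests.

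All 44 members are named. In each other list up to 5 genes past the threshold with the smallest adjusted p are named, and in each cell type list the 2 most abundant. A gene that this rule names among the periportal markers is not reported here. Regulators beyond this rule were chosen after their values were seen. The members and lists were chosen with earlier results of these data known.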

Additional observations from a re-analysis of the deposited data

How the results depend on the processing

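Of the 24 genes that passed the test, 21 (19 lower) did so under all 15 alternatives, 23 under all alternatives that kept every library, and 0 changed direction. *Sds* was lost with DESeq2, and it could not be tested when 10 counts were required in every library. Passing only with a library left out were *Otc*, *Bckdha* and *Sardh* (without LOXP replicate 1), *Kmo* (without LOXP replicate 2) and *Csad* (without KO replicate 3), and *Fah* passed under 4 alternatives. The count of lower genes was 22, and 20 to 25 with a library left out, and that of higher genes was 2, and 2 to 3. The number meeting the DEG criteria was 6, and 5 to 6 with a library left out. It was 5 with limma on log2(FPKM + 0.1) and 3 on log2(FPKM + 1), a scale that shrinks the changes of low genes. Among the further amino acid enzymes, 17 were lower (12 to 17 with a library left out) and 6 higher (2 to 6), with 2 higher without LOXP replicate 3, KO replicate 2 or KO replicate 3 and 3 without LOXP replicate 2. When genes with as little as 1 count were tested too, 3 were higher, and the cause was not tested. Genes with a log2 fold change near 0 changed sign without passing the test. *Shmt1* had 0.01 in both limma fits. With a library left out, *Shmt1* ran from -0.09 to 0.05 (above 0 without LOXP replicate 3 or KO replicate 1), *Slc25a13* from -0.10 to 0.02 and *Tst* from -0.00 to 0.17 (changed without LOXP replicate 1), and *Prodh* from -0.06 to 0.11 (below 0 without LOXP replicate 1 and without KO replicate 2 or 3). Each library's log2 normalized counts were also taken as deviations from its group mean, for each gene tested. Between same-numbered LOXP and KO libraries these deviations correlated by 0.12, 0.0834 and 0.0134, so the numbers were not taken as pairs. A replicate block left 22 lower and 2 higher with no call changed. *Hal* and *Sds* are limited by their few reads.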
